A study of Homo sapiens with 6 samples.

Results

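The aryl hydrocarbon receptor (AhR) pathway was examined in the human glioblastoma line U87 through 9 genes chosen by name: the receptor AHR, its dimerization partners ARNT and ARNT2, its repressors AHRR and TIPARP, and the induced enzymes CYP1A1, CYP1A2, CYP1B1 and NQO1. All 9 were found among the 60671 genes of the expression table. In the rutaecarpine group, cells were exposed for 48 h to 100 µM rutaecarpine, an alkaloid of the Evodia fruit, carried in 0.1% dimethyl sulfoxide (DMSO) in serum-free medium. The control group received 0.1% DMSO alone for the same 48 h. Each group held 3 RNA-Seq libraries from this 1 line, and the labels do not say whether these came from separate cultures, so the p-values measure only the spread between these libraries. The study asked which migration-related genes rutaecarpine regulates and whether AhR signaling takes part.

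AhR is a ligand-activated transcription factor of the basic helix-loop-helix PAS (bHLH-PAS) family. Without ligand it sits in the cytosol with HSP90 and PTGES3. When ligand binds, it enters the nucleus, pairs with ARNT and binds dioxin response elements (DREs) near its target genes. The CYP1 monooxygenases are its classic targets, while AHRR competes for ARNT and TIPARP ADP-ribosylates the receptor, so that both feed back on the pathway.

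Levels are in TPM, the share of a library's transcripts scaled by transcript length, and depth is unknown because the table holds no counts. The libraries are bulk RNA, so a change in the number of expressing cells and a change in the level per cell cannot be told apart. The test, limma on log2(TPM + 1), took in the 14377 genes whose TPM reached 1 in 3 or more libraries. A gene passed the test at a Benjamini-Hochberg adjusted p of at most 0.05 over all of them. Fold changes (log2FC) are rutaecarpine over control on the log2(TPM + 1) scale, which understates the change of low genes, and ratios are of mean TPM.

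The libraries had between 13758 and 14475 genes at a TPM of at least 1, and control replicate 3 had the fewest. Against the other controls, its median log2 difference was 0.08 over genes with the shortest transcripts (up to 2023 bases) and -0.64 over genes with the longest (above 5100.5 bases). Rutaecarpine replicate 2 differed from the other rutaecarpine libraries by 0.03 and -0.26 over the same genes. Of the 8 members that could be tested, control replicate 3 had the lowest control value for 6 and rutaecarpine replicate 2 the lowest rutaecarpine value for 7. The 5 markers of a glioblastoma line (VIM, CD44, NES, FN1 and TNC) summed to between 13118 and 16126 TPM in control and between 9175 and 10001 TPM in rutaecarpine libraries. VIM and FN1 made up most of these sums, and NES had between 12.3 and 21.0 TPM. CDKN2A, which U87 cells lack, was listed at 0 in all libraries except rutaecarpine replicate 3, at 0.06 TPM. GFAP, the other gene listed beforehand as low in U87, had between 3.48 and 5.41 TPM. The 13 markers of leukocytes, endothelium, epithelium, neurons, oligodendrocytes and hepatocytes summed to at most 30.8 TPM, nearly all from SNAP25, and APOA1 was listed at 0 in every library.

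Among the 8 members tested, 5 rose (AHRR, TIPARP, CYP1A1, CYP1B1 and NQO1) and 0 fell, where 4.6% of all genes tested rose and 4.68% fell. A log2FC above 1 was reached by 3 of them (AHRR, TIPARP and CYP1B1), against 2.01% of all genes. The second threshold of the study has this value, but for fold changes from DESeq2, DEGseq or edgeR. On the log2(TPM + 1) scale used here, CYP1A1 was at 0.99. The TPM ranges of the groups did not overlap for 6 of the 8, the 5 genes above and ARNT2, against 33.3% of all genes. AHRR and CYP1A1 passed the filter on low TPM only through the rutaecarpine libraries, so they had to differ, and the counts give no support of their own. CYP1A2 was below the filter and was not tested.

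**Figure D1:**
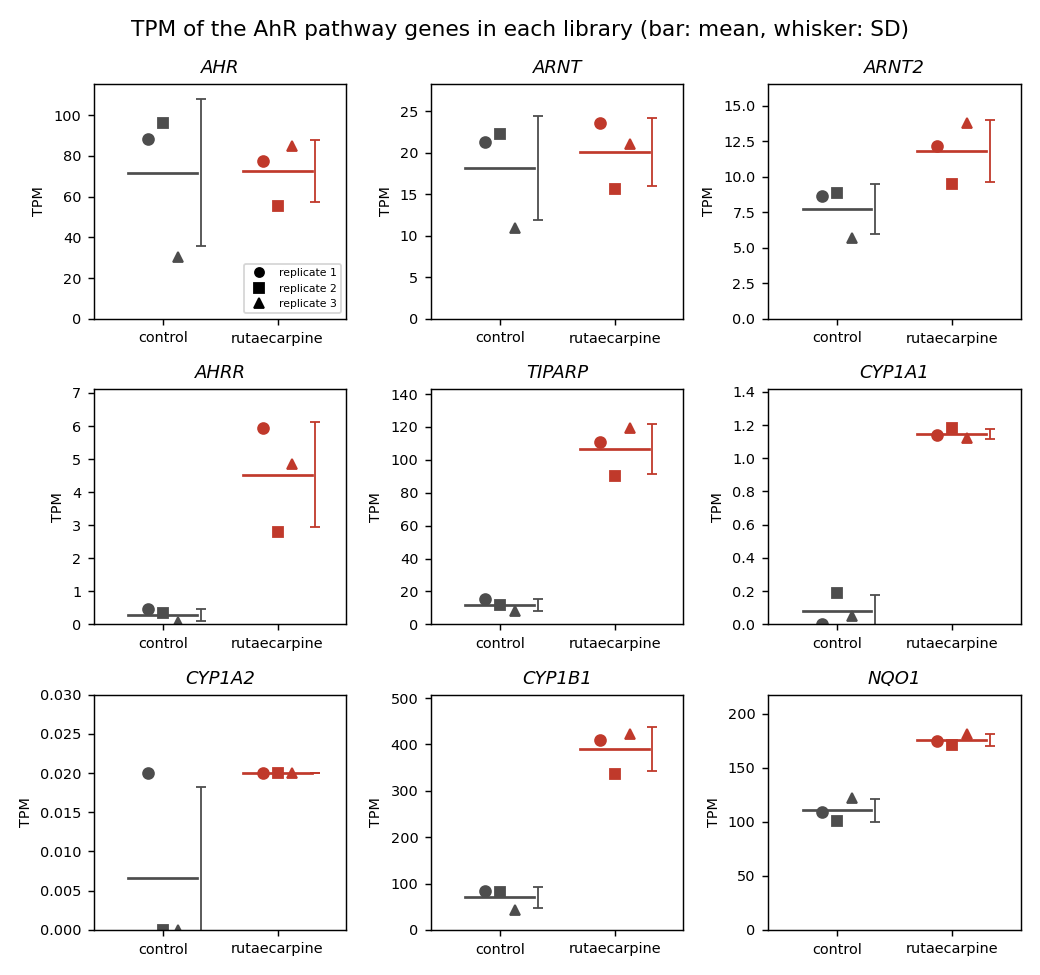
TPM (vertical axes, each starting at 0) of the 9 AhR pathway genes in the 3 control (grey) and 3 rutaecarpine (red) libraries; horizontal bars are means, whiskers are SDs cut off at 0, and marker shapes are replicate numbers. The groups are apart for ARNT2, AHRR, TIPARP, CYP1A1, CYP1B1 and NQO1 and overlap for AHR, ARNT and CYP1A2.

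The receptor itself did not pass the test. AHR (ENSG00000106546, chromosome 7, 16916359 to 17346152, plus strand; positions are GENCODE 29 gene spans on GRCh38) had 88.5, 96.2 and 30.2 TPM in control replicates 1, 2 and 3 and 77.4, 55.3 and 84.8 TPM in rutaecarpine replicates 1, 2 and 3. The control values of replicates 1 and 2 lay above every rutaecarpine value, and that of replicate 3 lay below them. The means were 71.6 ± 36.1 and 72.5 ± 15.4 TPM (SD, n = 3 each), and the log2FC was 0.16 (SE 0.43, 95% interval -0.85 to 1.17, adjusted p = 0.846). Without control replicate 3 it was -0.37 (adjusted p = 0.186), so the direction for AHR rests on that library.

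ARNT, the main partner with which AhR binds DREs (ENSG00000143437, chromosome 1, 150809705 to 150876768, minus strand), had 21.2, 22.3 and 11.0 TPM in control and 23.6, 15.6 and 21.1 TPM in rutaecarpine libraries. These ranges overlapped. The log2FC of ARNT was 0.18 (SE 0.29, 95% interval -0.49 to 0.85, adjusted p = 0.73), and without control replicate 3 it was -0.13 (adjusted p = 0.65).

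ARNT2 is a paralog of ARNT best known from neural tissue (ENSG00000172379, chromosome 15, 80404350 to 80597937, plus strand). It had 8.65, 8.85 and 5.71 TPM in control and 12.2, 9.5 and 13.8 TPM in rutaecarpine libraries, so every rutaecarpine value was the higher. The means were 7.74 ± 1.76 and 11.8 ± 2.17 TPM (SD, n = 3 each), a ratio of 1.53. The log2FC was 0.56 (SE 0.22, 95% interval 0.05 to 1.07) and the adjusted p over all genes was 0.168, which misses the threshold. With libraries weighted by their spread in this fit, the adjusted p was 0.0304 at a log2FC of 0.46. With a trend on transcript length and GC content removed, it was 0.0188 at a log2FC of 0.45. ARNT2 passed in only these 2 of 15 alternatives, which passed 27.6% and 19.4% of all genes tested, against 9.29% in the main fit. The weight of control replicate 3 was 0.121, the lowest, and with that library left out the adjusted p was 0.162. In another alternative it reached 0.449. The ratio of ARNT2 to ARNT within a library was 0.407, 0.397 and 0.521 in control and 0.517, 0.61 and 0.655 in rutaecarpine libraries (p = 0.2, exact two-sided permutation test, for which 3 against 3 libraries cannot give less than 0.1).

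Before the values of the induced genes, the DRE core was searched for near their transcription starts, since these are the letters to which the AhR and ARNT pair binds. RefSeq windows of 300 bases (250 before and 50 after a start, GRCh38.p14) were matched for 7 of the 9 members, all but CYP1B1 and ARNT2. The core GCGTG was counted on both strands, so that CACGC in the printed strand counts too, and so was the longer form TNGCGTG, which contains it. Of all 35116 such windows, 36.5% held the core and 5.51% the longer form. The stretches below show a core upstream of a start of AHRR, CYP1A1 and TIPARP, each 29 bases long and 5′ to 3′ on the strand of its gene, with the core in capitals.
AHRR, core from 30 bases before the start, chr5:321672-321700, plus strand: ggcgggcggctcGCGTGccggggtggggc
AHRR, second start, core from 42 bases before it, chr5:322556-322584, plus strand: gcagaagggtggGCGTGtgcgcgcgttct
CYP1A1, core from 57 bases before the start, chr15:74725569-74725597, minus strand: ccagggaaggagGCGTGgccacacgtaca
TIPARP, core from 208 bases before the start, chr3:156674370-156674398, plus strand: cgcgagaaaggaCACGCcccctcgcggga
TIPARP, core from 142 bases before the start, chr3:156674436-156674464, plus strand: cgaacgaacgcgCACGCgcgcgcaggggg
The first AHRR stretch holds the longer form TNGCGTG and lies in an intron of 3 of the 11 AHRR transcripts of GENCODE 29 and outside the other 8. The second lies outside 6 of them, in an intron of 4 and over an exon of 1. The CYP1A1 stretch lies outside 9 of 10 transcripts and over an exon of 1, and each TIPARP stretch lies outside 5 of 7, in an intron of 1 and over an exon of 1. The second AHRR window held a further core, farther upstream, that is not printed, and 2 other TIPARP windows held none. AHR and NQO1 had a core after the start, at 38 and 2 bases, that of NQO1 in the longer form, and the windows of ARNT and CYP1A2 held none. A match is a description of the letters and not a measured binding site.

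TIPARP, a mono-ADP-ribosyltransferase of the PARP family (ENSG00000163659, chromosome 3, 156673235 to 156706770, plus strand), showed the largest log2FC of the members on this scale (with 0.1 added to the TPM, that of AHRR was 3.69). Its level was 15.1, 11.9 and 8.08 TPM in control and 111, 90.1 and 119 TPM in rutaecarpine libraries. The lowest treated library was thus far above the highest control library. The means were 11.7 ± 3.52 and 107 ± 15.0 TPM (SD, n = 3 each), a ratio of 9.11, with a log2FC of 3.11 (SE 0.22, 95% interval 2.59 to 3.63, adjusted p = 0.000529). Ranked by TPM within each library, TIPARP stood at places 7095, 7953 and 8131 in control and at places 1272, 1542 and 1199 in rutaecarpine libraries. Its antisense neighbour TIPARP-AS1, with 3.79 ± 0.835 TPM in control and 4.71 ± 0.857 TPM in rutaecarpine libraries, did not pass (log2FC 0.26, adjusted p = 0.484).

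AHRR, the AhR repressor (ENSG00000063438, chromosome 5, 304176 to 438291, plus strand), was low but higher in every treated library. It had 0.45, 0.33 and 0.07 TPM in control and 5.93, 2.8 and 4.86 TPM in rutaecarpine libraries. The log2FC was 2.07 (SE 0.27, 95% interval 1.45 to 2.7, adjusted p = 0.00472). AHRR met the filter only through the rutaecarpine libraries, so this p-value gives no support of its own. AHRR shares exons with the readthrough gene PDCD6-AHRR (ENSG00000288622, whose name came from a lookup table), so the division of reads between them is uncertain. PDCD6-AHRR had 1.51, 1.77 and 1.24 TPM in control and 24.0, 20.2 and 26.2 TPM in rutaecarpine libraries (log2FC 3.28, SE 0.17, adjusted p = 0.000188). A second entry of that name (ENSG00000286169) was listed at 0 in every library except rutaecarpine replicate 1, at 1.57 TPM, and was not tested. Summed over AHRR and both entries, the level was 1.96, 2.1 and 1.31 TPM in control and 31.5, 23.0 and 31.1 TPM in rutaecarpine libraries, with no overlap (p = 0.1, the smallest the exact two-sided permutation test allows). PDCD6, the calcium-binding protein gene just upstream, was chosen after its values were seen and rose from 67.8 ± 3.9 to 102 ± 2.75 TPM (SD, n = 3 each; log2FC 0.58, SE 0.08, adjusted p = 0.00646).

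CYP1B1, a monooxygenase of polycyclic hydrocarbons and estradiol (ENSG00000138061, chromosome 2, 38066973 to 38109902, minus strand), was the most abundant member after treatment. It had 84.7, 82.4 and 42.8 TPM in control and 411, 335 and 423 TPM in rutaecarpine libraries. The control level of this gene was already close to that of AHR, and each treated library lay above all controls. The means were 70.0 ± 23.6 and 390 ± 47.3 TPM (SD, n = 3 each), a ratio of 5.57, and the log2FC was 2.52 (SE 0.26, 95% interval 1.9 to 3.13, adjusted p = 0.00191). Its rank by TPM was 1684, 1709 and 2891 in control and 325, 394 and 317 in rutaecarpine libraries. CYP1B1-AS1, the antisense neighbour, had 3.4 ± 1.25 and 6.3 ± 1.21 TPM, did not overlap between groups and did not pass (log2FC 0.76, adjusted p = 0.134). Whether counting used strand is not given in the sources used here, so reads of a gene and its antisense partner may not be separated.

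CYP1A1, the enzyme most used as a readout of AhR activity (ENSG00000140465, chromosome 15, 74719542 to 74725610, minus strand), was near 0 in control and slightly above 1 TPM in rutaecarpine libraries. It was listed at 0, 0.19 and 0.05 TPM in control and at 1.14, 1.18 and 1.12 TPM in rutaecarpine libraries. The treated values were tightly grouped and above all controls. The log2FC was 0.99 (SE 0.16, 95% interval 0.61 to 1.38, adjusted p = 0.0113), and it was 2.93 when 0.1 in place of 1 was added to the TPM. CYP1A1, like AHRR, met the filter only through the rutaecarpine libraries, so its p-value gives no support of its own. Leaving out control replicate 1 or any 1 rutaecarpine library brought the adjusted p to between 0.05 and 0.0545 at a log2FC of 0.94 to 1.0. CYP1A2, its neighbour in head-to-head orientation (ENSG00000140505, chromosome 15, 74748844 to 74756202, plus strand), was listed at 0.02, 0 and 0 TPM in control and at 0.02 TPM in each rutaecarpine library.

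NQO1, a quinone reductase induced through both AhR and NRF2 (ENSG00000181019, chromosome 16, 69706996 to 69726951, minus strand), rose with a log2FC below 1. It had 109, 101 and 122 TPM in control and 175, 171 and 182 TPM in rutaecarpine libraries, without overlap. The means were 111 ± 10.5 and 176 ± 5.25 TPM (SD, n = 3 each), a ratio of 1.59, with a log2FC of 0.67 (SE 0.09, 95% interval 0.45 to 0.88, adjusted p = 0.00581). With each library centred on its median the log2FC was 0.57 and the adjusted p 0.0987, and with the same centring but control replicate 3 left out they were 0.78 and 0.00104.

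**Figure D2:**
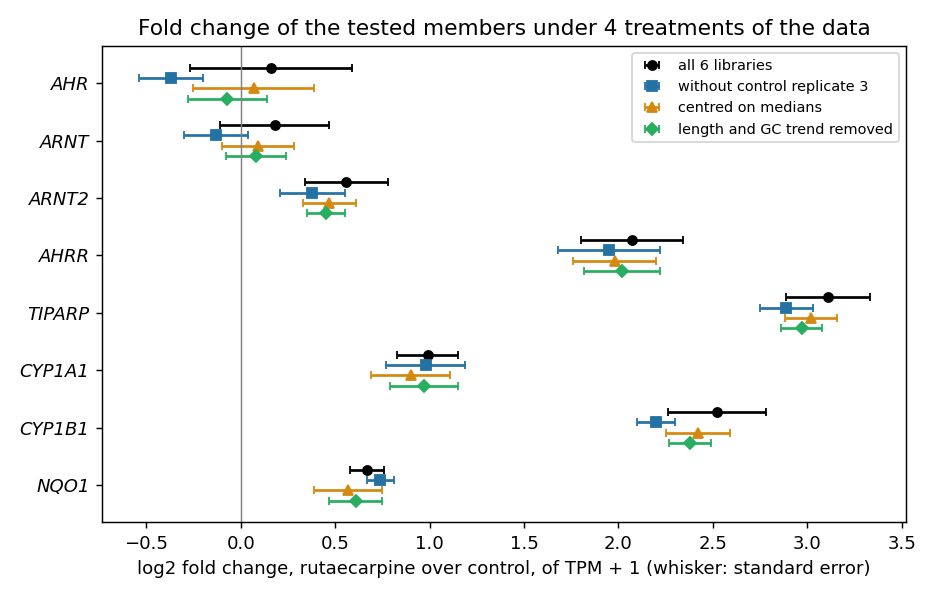
Log2FC of TPM + 1, rutaecarpine over control (horizontal axis), for the 8 members tested; points are estimates and whiskers standard errors, with all 6 libraries, without control replicate 3, with libraries centred on their medians, and with a trend on transcript length and GC content removed. TIPARP, CYP1B1, AHRR, CYP1A1, NQO1 and ARNT2 lie above 0 in each version. AHR and ARNT lie on either side of 0. With and without control replicate 3, AHR is at 0.16 and -0.37 and ARNT at 0.18 and -0.13.

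Within a library, the levels of the induced genes could be set against that of the receptor. The ratio of TIPARP to AHR was 0.171, 0.124 and 0.267 in control and 1.43, 1.63 and 1.4 in rutaecarpine libraries, so TIPARP passed from below to above its receptor. For CYP1B1 to AHR the ratio went from 0.957, 0.857 and 1.42 to 5.31, 6.07 and 4.99. Counted by its own entry alone, AHRR remained a small share of AHR. Its ratios were 0.00509, 0.00343 and 0.00232 in control and 0.0767, 0.0507 and 0.0573 in rutaecarpine libraries. That share depends on how reads were divided with PDCD6-AHRR. The summed level of AHRR and PDCD6-AHRR was 31.5, 23.0 and 31.1 TPM in rutaecarpine libraries, where AHR had 77.4, 55.3 and 84.8 TPM. The ratio of TIPARP to CYP1B1 was 0.179, 0.145 and 0.189 in control and 0.269, 0.269 and 0.282 in rutaecarpine libraries, higher in every treated library. None of these 4 ratios overlapped between groups (p = 0.1 for each, the smallest the exact two-sided permutation test allows), and they share genes and libraries. The ratios to AHR largely restate the rises of TIPARP, CYP1B1 and AHRR given above, beside an AHR that did not pass, and are no further test. The ratio of AHR to ARNT was 4.17, 4.32 and 2.76 in control and 3.28, 3.55 and 4.02 in rutaecarpine libraries, which overlap (p = 0.9, exact two-sided permutation test).

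The order of the members' levels differed between the groups. In control libraries, mean TPM fell from NQO1 to AHR, CYP1B1, ARNT, TIPARP, ARNT2, AHRR, CYP1A1 and CYP1A2. Neighbours whose ranges overlapped there were AHR and CYP1B1, ARNT and TIPARP, TIPARP and ARNT2, AHRR and CYP1A1, and CYP1A1 and CYP1A2. In rutaecarpine libraries, mean TPM fell from CYP1B1 to NQO1, TIPARP, AHR, ARNT, ARNT2, AHRR, CYP1A1 and CYP1A2, and the ranges of neighbours did not overlap. AHRR was placed by its own entry alone. Summed with the PDCD6-AHRR entries, its mean in rutaecarpine libraries was 28.5 TPM, above the 20.1 TPM of ARNT.

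CYP1B1 made up most of the cytochrome P450 transcripts counted here after treatment. P450 genes were found by a name in the table of the form CYP, number, letters, number. Those without a name in the table or with another form of name are left out. Over the 54 genes found, the summed level was 204, 205 and 131 TPM in control and 537, 453 and 550 TPM in rutaecarpine libraries. The share of CYP1B1 in that sum was 38.1 ± 4.79% in control and 75.8 ± 1.54% in rutaecarpine libraries (SD, n = 3 each), without overlap. This restates the rise of CYP1B1 and is no further test. Without CYP1B1 the sum was 120, 122 and 88.4 TPM in control and 126, 117 and 127 TPM in rutaecarpine libraries, which overlap. Within the CYP1 family alone, CYP1B1 held at least 99.6% of the TPM in every library. Of the 51 P450 genes that were not members, 13 could be tested, 0 passed (3 had an unadjusted p under 0.05), and their median log2FC was 0.11, against 0.08 over all genes. The most abundant of them were CYP51A1, a sterol demethylase, with 58.9 ± 12.9 and 65.9 ± 3.16 TPM (adjusted p = 0.543), and CYP2R1, a vitamin D hydroxylase, with 13.9 ± 0.182 and 18.1 ± 1.89 TPM (adjusted p = 0.139). Another 13 P450 genes were listed at 0 in every library, and none of the genes left untested exceeded 1.83 TPM.

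**Figure D3:**
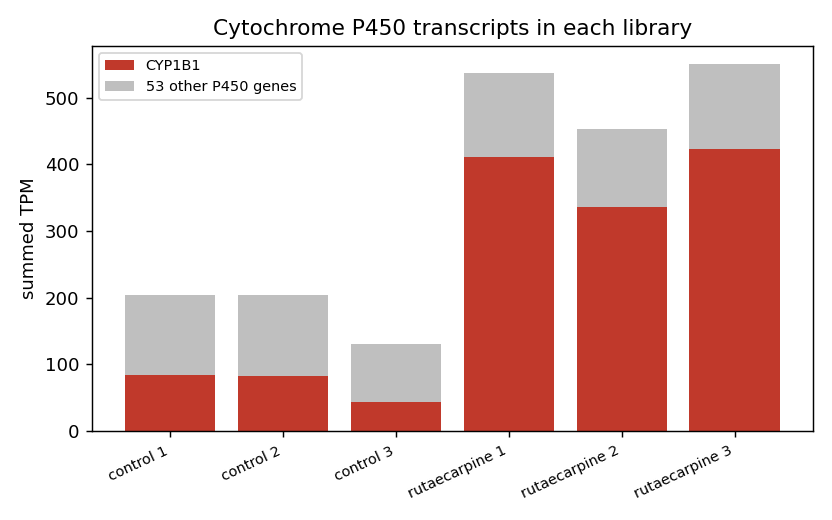
Summed TPM of the cytochrome P450 genes found by name (vertical axis, from 0) in each of the 6 libraries, with CYP1B1 in red and the 53 others in grey. The red part grew from at most 84.7 TPM to at least 335 TPM, while the grey part lay between 88.4 and 127 TPM in both groups.

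The other genes of the pathway are given by lists, which were chosen with earlier results of these data known, and 9.29% of all genes tested passed in either direction. Of the 13 genes of the AhR complex and its co-regulators, 0 passed and 1 had an unadjusted p under 0.05. The chaperones HSP90AB1, with 773 ± 65.7 and 822 ± 8.6 TPM (log2FC 0.09, adjusted p = 0.535), and HSP90AA1, with 413 ± 88.8 and 430 ± 10.3 TPM (log2FC 0.08, adjusted p = 0.778), were the most abundant. The median log2FC of this list was 0.16. Among 12 other bHLH-PAS factors, 8 were tested and 1 passed: NPAS2, a partner of the circadian factor ARNTL, rose from 53.5 ± 9.09 to 127 ± 11.2 TPM (SD, n = 3 each; log2FC 1.24, SE 0.14, adjusted p = 0.00293). EPAS1, a hypoxia-inducible factor that also pairs with ARNT, had 264 ± 52.5 and 180 ± 21.1 TPM (log2FC -0.53, adjusted p = 0.102), and HIF1A had 228 ± 71.5 and 235 ± 33.5 TPM (adjusted p = 0.863).

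Of 9 further genes listed as drug metabolism targets of AhR, only ALDH1A3 and GSTA4 reached the level for a test. ALDH1A3, which makes retinoic acid from retinal, had 143, 147 and 71.8 TPM in control and 665, 647 and 678 TPM in rutaecarpine libraries. Its level rose in all treated libraries, with a log2FC of 2.52 (SE 0.26, adjusted p = 0.00191). Because this list was chosen with results known, that rise is no independent evidence. GSTA4, a glutathione transferase, had 21.3 ± 2.58 and 20.0 ± 2.28 TPM (adjusted p = 0.734). The other 7, among them ALDH3A1, UGT1A6 and ABCG2, had at most 0.46 TPM, and 4 were listed at 0 throughout.

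Among 10 genes for cytokines, growth factors, transport and the cell cycle reported as AhR-responsive, 9 were tested, 7 rose and 0 fell, with a median log2FC of 2.99. Their prior selection with results known means that this count is no independent evidence of a direction. SERPINB2, a plasminogen activator inhibitor, rose from 7.31 ± 0.807 to 348 ± 29.8 TPM (log2FC 5.4, adjusted p = 2.76e-06). The cytokine genes IL1B (197 ± 20.8 to 6670 ± 320 TPM, log2FC 5.08), IL24 (2.39 ± 0.32 to 75.8 ± 4.81 TPM, log2FC 4.5) and IL6 (632 ± 19.7 to 1340 ± 132 TPM, log2FC 1.08) rose as well (adjusted p = 2.76e-06, 2e-05 and 0.000962). So did PTGS2, the inducible cyclooxygenase (52.0 ± 18.6 to 803 ± 122 TPM, log2FC 3.98, adjusted p = 0.000515), EREG, a ligand of the epidermal growth factor receptor (66.1 ± 25.3 to 503 ± 43.9 TPM, log2FC 2.99, adjusted p = 0.00156), and SLC7A5, an amino acid transporter that carries tryptophan and kynurenine (46.5 ± 5.96 to 113 ± 9.87 TPM, log2FC 1.26, adjusted p = 0.00156). CDKN1B, a cyclin-dependent kinase inhibitor (33.4 ± 7.43 and 50.5 ± 1.45 TPM, adjusted p = 0.0732), and VAV3 (9.82 ± 3.01 and 8.68 ± 1.4 TPM, adjusted p = 0.783) did not pass, and HES1 was at most 0.21 TPM.

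The kynurenine route makes endogenous AhR ligands from tryptophan, and 8 of its 12 genes were tested. AFMID, which hydrolyses N-formylkynurenine, fell from 51.5 ± 4.61 to 33.6 ± 3.76 TPM (log2FC -0.6, adjusted p = 0.0256), and 0 rose. This call of 1 in 8, near the share over all genes, was lost under median centring, without the filter, with the replicate block, and without control replicate 1, rutaecarpine replicate 1 or rutaecarpine replicate 3, where 0 genes passed. Median centring passed 9.59% of all genes tested, near the 9.29% of the main fit. The other settings passed fewer: 3.04% without the filter, 2.98% with the block and 3.75 to 4.69% without 1 of these libraries. Before adjustment, 4 of the 8 had a p under 0.05. KYNU had 216 ± 8.97 and 235 ± 13.3 TPM (adjusted p = 0.398), and QPRT had 18.7 ± 2.22 and 12.7 ± 1.14 TPM (adjusted p = 0.0687). TDO2 and IDO1 catalyse the first step of the route: TDO2 had 4.85 ± 0.528 and 8.84 ± 2.35 TPM (adjusted p = 0.0922), and IDO1 was below the filter, with 0.28 ± 0.234 and 0.197 ± 0.0503 TPM. These 2 genes are outside the rule for named genes and were chosen after their values were seen. The median log2FC of the route was -0.08.

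All 7 genes that supply P450 enzymes with electrons and heme were tested, and CYB5A alone passed. CYB5A, which encodes cytochrome b5, fell from 83.4 ± 6.21 to 58.7 ± 0.481 TPM (log2FC -0.5, adjusted p = 0.0156). That call was lost under median centring, with the length and GC trend removed, with the replicate number as a block, and without control replicate 1 or any 1 rutaecarpine library, each of which left 0 genes of this list past the test. Over all genes tested, 9.59% passed under median centring and 19.4% with the trend removed, against 9.29% in the main fit. Only 2.98% passed with the block, and 3.75 to 4.69% without 1 of these libraries. POR, the reductase on which CYP1 enzymes depend, had 49.4 ± 2.64 and 50.4 ± 1.09 TPM (log2FC 0.03, 95% interval -0.18 to 0.24, adjusted p = 0.851), and was also chosen after its values were seen. The most abundant that did not pass were CYB5R3, with 285 ± 31.2 and 232 ± 14.4 TPM (adjusted p = 0.128), and PGRMC1, with 156 ± 32.4 and 142 ± 6.54 TPM (adjusted p = 0.699).

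Beside NQO1, 11 genes of the NRF2 antioxidant response were tested, of which 3 rose and 1 fell, with a median log2FC of 0.28. Before adjustment, 9 of the 11 had a p under 0.05. The groups did not overlap for 9 of the 11, against 33.3% of all genes. The count of 4 was 1 with the replicate block, 2 without the filter, 2 without control replicate 1 or any 1 rutaecarpine library, and 9 with library weights. The share of all genes tested that passed was 9.29% in the main fit and 27.6% with library weights. It was 2.98% with the replicate block, 3.04% without the filter and 3.75 to 4.69% without 1 of those libraries. NFE2L2, which encodes NRF2 itself, rose from 47.4 ± 6.43 to 108 ± 12.1 TPM (log2FC 1.18, adjusted p = 0.00282). SLC7A11, the cystine transporter, rose from 5.92 ± 2.77 to 22.2 ± 5.18 TPM (log2FC 1.81, adjusted p = 0.0191), and GCLC, of glutathione synthesis, from 14.4 ± 3.94 to 26.3 ± 1.86 TPM (log2FC 0.86, adjusted p = 0.0483). AKR1B10, an aldo-keto reductase, fell from 14.7 ± 1.27 to 5.7 ± 1.08 TPM (log2FC -1.24, adjusted p = 0.006). AKR1C1, another aldo-keto reductase, had 133 ± 42.1 and 77.8 ± 5.8 TPM and did not pass (log2FC -0.72, adjusted p = 0.09).

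TIPARP belongs to the PARP family of ADP-ribosyltransferases. Of 15 other PARP family genes tested, 0 rose and 1 fell, with a median log2FC of 0.12. PARP1, the main DNA-damage-responsive member, fell from 54.3 ± 8.11 to 33.2 ± 2.32 TPM (log2FC -0.68, adjusted p = 0.0231). No gene of the family passed without the filter, with the replicate block, or with any 1 library other than control replicate 3 left out, and 3 passed without control replicate 3. Without control replicate 3, 18.5% of all genes tested passed, against 9.29% in the main fit. The share was 3.04% without the filter, 2.98% with the replicate block and 3.75 to 4.99% with another library left out. PARP3 had 69.5 ± 6.99 and 73.0 ± 4.38 TPM (adjusted p = 0.7), and PARP6 had 44.1 ± 4.44 and 48.7 ± 2.47 TPM (adjusted p = 0.449).

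**Figure D4:**
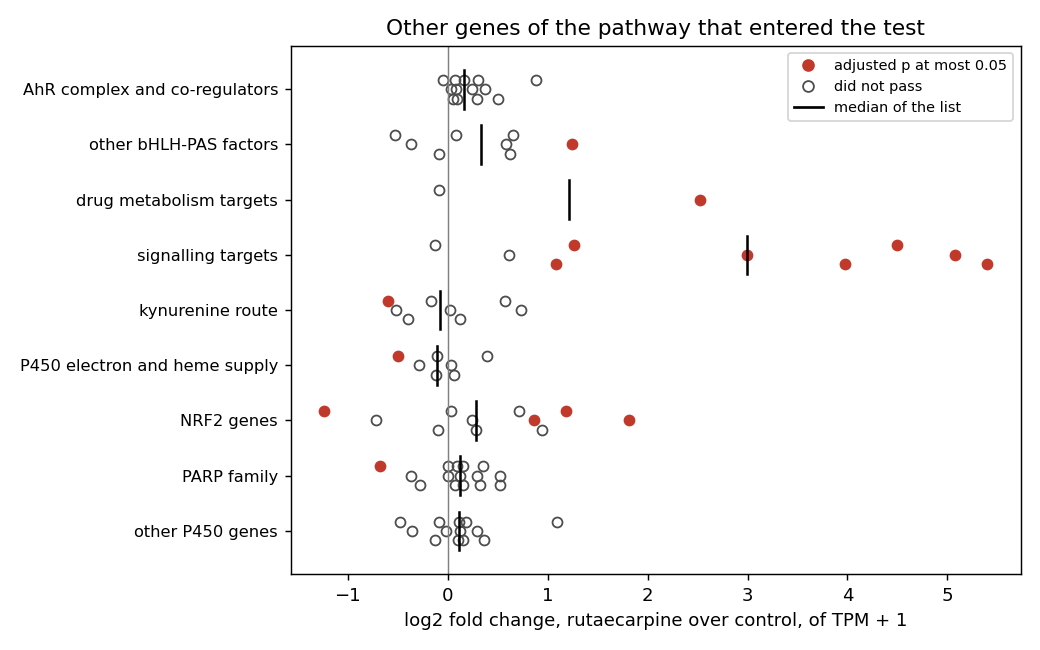
Log2FC of TPM + 1, rutaecarpine over control (horizontal axis), for each gene tested in 9 lists of AhR pathway genes; filled points passed at an adjusted p of at most 0.05, open points did not, and the vertical bar is the median of the list. The signalling targets have the highest median, at 2.99, while the complex, PARP and other P450 lists have medians between 0.11 and 0.16.

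The genes whose profile over the 6 libraries was most like that of CYP1B1 were found by the root mean square difference between log2(TPM + 1) values, after subtracting each gene's mean. The smallest differences were those of ALDH1A3 (0.091), THBS1, a matricellular glycoprotein (0.11), FGF2, a growth factor (0.12), STC2, a secreted glycoprotein (0.12), and NRG1, a ligand of ERBB receptors (0.19). THBS1 had 8.87, 7.47 and 3.09 TPM in control and 46.4, 32.3 and 42.8 TPM in rutaecarpine libraries, with the low control replicate 3 that CYP1B1 also showed. Of the members, TIPARP (0.32) and AHRR (0.34) took places 20 and 21 among the genes tested, and CYP1A1 (0.83) took place 365. Points of a profile share their libraries, so the measure is a description only, and without control replicate 3 the list kept 3 of its 5 genes. GAPDH, the reference gene of the study's quantitative PCR, had 11600 ± 575 TPM in control and 10400 ± 518 TPM in rutaecarpine libraries (log2FC -0.15, SE 0.09, adjusted p = 0.36). It did not pass, but every rutaecarpine value was below every control value, and 33.3% of all genes had groups without overlap.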

How the data were processed

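Total RNA from 3 rutaecarpine and 3 control cultures or preparations of U87 cells was sequenced by the authors, who deposited 1 table of TPM values per gene and library. Per the labels and the study's methods these TPM values came from RSEM on GRCh38.p13, without pooling. The submitters' processing notes also list DESeq2 and edgeR, and the aligner is not given in the sources used here. TPM sums per library were 990889 to 995734, and depth is unknown, so no counting interval was computed. Of 60671 genes, 35671 had no name in the table and 35432 of these were named from a lookup table.

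The 14377 genes that reached a TPM of 1 in 3 or more libraries entered limma 3.58.1 (R 4.3.3) on log2(TPM + 1), with the mean-variance trend, two-sided, and Benjamini-Hochberg adjustment over all of them. No covariate was used, and the labels name no batch. Single values were compared by exact permutation of the 3 against 3 libraries. The fit was tested on simulated data with independent noise, whose spread was taken without control replicate 3. Such data do not hold the shift of that library, so the test does not cover it. Alternatives were centring on library medians, no trend, no filter, a filter requiring 1 TPM or more in all libraries, a pseudocount of 0.1, library weights, the replicate number as a block, and each library left out. Removal of a trend on transcript length and GC content (splines with 5 degrees of freedom, 14267 genes with GENCODE 29 values), and centring without control replicate 3, were added after seeing the data. The members and lists were chosen with earlier results of these data known. Named were the members, list genes that passed, the 2 most abundant of each list that did not, neighbouring genes, GAPDH and the 5 genes most like CYP1B1, except that 1 gene of this rule is not reported here.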

Additional observations from a re-analysis of the deposited data

How the results depend on the processing

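Of 279 recomputed values over 19 results and 15 alternatives, 211 kept their direction and side of the threshold, or a count within 1.5 times. TIPARP and CYP1B1 passed in 15 of 15 alternatives. AHRR passed in 14 of 14, but it met the main filter only through the rutaecarpine libraries, so this gives no support of its own. With 1 library left out, the log2FC ranged from 1.89 to 2.32 (AHRR), 2.89 to 3.3 (TIPARP) and 2.2 to 2.68 (CYP1B1). NQO1 ranged from 0.61 to 0.74 and lost its call under median centring (0.57, adjusted p = 0.0987). CYP1A1 ranged from 0.94 to 1.07 and lost its call without control replicate 1 (adjusted p = 0.053) and without rutaecarpine replicate 1, 2 or 3 (0.0545, 0.05 and 0.0528, the second just above the threshold before rounding). ARNT2 ranged from 0.38 to 0.7 and passed in only 2 of 15 alternatives, with library weights (0.46) and with the length and GC trend removed (0.45). AHR turned negative with library weights (-0.24), with the length and GC trend removed (-0.07), and with centring and control replicate 3 left out (-0.33), and ranged from -0.37 to 0.45 with 1 library left out. ARNT turned negative with library weights (-0.0019) and with centring and control replicate 3 left out (-0.09), and ranged from -0.13 to 0.35. The cause of these changes was not tested.

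The member count of 5 was 3 when a TPM of at least 1 was required in every library, since AHRR and CYP1A1 then left the test, and 4 to 5 with 1 library left out. The list counts below are to be read against the share of all genes that passed in the same setting. It was 27.6% with library weights, 19.4% with the length and GC trend removed and 19.5% with centring and control replicate 3 left out. It was 9.59% with median centring, 3.04% without a filter, 2.98% with the replicate block and 8.43% without the mean-variance trend. Without control replicate 3 it was 18.5%, and without any other library 3.75 to 4.99%. With library weights, 2 genes passed in the complex list, 4 among bHLH-PAS factors, 4 in the kynurenine route, 3 in electron and heme supply, 9 in the NRF2 list, 3 in the PARP family and 3 other P450 genes. With the length and GC trend removed these counts were 1 in the complex list, 4 bHLH-PAS, 3 kynurenine, 0 electron and heme supply and 2 other P450. With centring and control replicate 3 left out they were 1 in the complex list, 4 bHLH-PAS, 3 kynurenine, 7 NRF2 and 1 other P450. With median centring alone, 3 bHLH-PAS, 0 kynurenine, 0 electron and heme supply and 1 other P450 gene passed. No filter gave 0 kynurenine, 2 NRF2 and 0 PARP genes, and no mean-variance trend gave 2 kynurenine genes. With 1 library left out, counts ranged from 1 to 3 (bHLH-PAS), 0 to 3 (kynurenine), 0 to 2 (electron and heme supply), 2 to 6 (NRF2), 0 to 3 (PARP) and 0 to 1 (other P450), and the highest in the kynurenine, electron and PARP lists were those without control replicate 3. The genes most like CYP1B1 kept 3 of 5 without control replicate 3, with or without centring, and 3 to 5 over all libraries left out.

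Same-numbered libraries of the 2 groups had deviations that correlated at 0.116, -0.266 and -0.215, so the numbers were not taken to pair them. With the replicate block, CYP1A1 lost its call (0.99, adjusted p = 0.0696), and 0 kynurenine, 0 electron and heme supply, 1 NRF2 and 0 PARP genes passed. Over all genes, 1335 passed, against 428 with the block, 892 without a filter, 3962 with library weights, 2762 with the length and GC trend removed, 2802 with centring and control replicate 3 left out, 2666 without control replicate 3, and 539 to 718 without any other library. Median centring moved the split from 662 higher and 673 lower to 593 and 786.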
